A study of Marchantia polymorpha and Lactuca sativa with 27 samples.

Results

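The 45 lettuce genes described here had lower levels in shoots kept without phosphate than in full medium. In shoots kept without nitrate they had a mean close to that of full medium. They were chosen by their measured levels in the same libraries that are described here, out of 48985 genes in the deposited count table. The rule took CPM values (counts scaled to the library total), a log2 ratio of group means (with 1 CPM added to each mean) of -1.5 or lower for no phosphate over full medium, and a ratio between -0.5 and 0.5 for no nitrate over full medium. It also required every no-phosphate library to lie below every no-nitrate and every full-medium library. Of 30148 genes with any count, 0.846% met the first condition, 91.9% the second and 14.1% the third.

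Shoots of the red-leaved lettuce Red fire came from seedlings moved at 4 days of age for 7 days to medium with 0 mM phosphate, to medium with 0 mM nitrate, or to full medium, which held 2 mM phosphate and 10 mM nitrate. Each group held 3 poly(A)-selected, directional RNA-seq libraries, of 18857111 to 22642271 counts. The columns are headed P1 to P3 for no phosphate, N1 to N3 for no nitrate and C2, C3 and C4 for full medium. All 3 groups were grown under continuous light and first raised on the same MS medium. The labels do not say how many plants a library held or whether the replicates were grown apart, and p-values therefore reflect library-to-library spread that may be technical. The study also sequenced a liverwort, which is not analysed here.

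Phosphate is part of nucleic acids, membrane phospholipids and ATP, and plants short of it change both uptake and use. In Arabidopsis, transcription factors of the PHR family bind promoters of phosphate-starvation genes, and SPX proteins hold these factors back while inositol pyrophosphates signal sufficient phosphate. Nitrate is a nitrogen source and a signal of its own, and in Arabidopsis and rice nitrate signalling acts on SPX proteins and so on the phosphate response. The count table gives only numbered lettuce identifiers, and neither it nor the reference table used here pairs them with gene names. No role can therefore be given to any of the 45 genes, 2 of them are named by identifier, and leaf or root marker genes were not looked up.

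One library stood apart before any of these genes were considered. On the first principal component of all 23366 genes that passed the low-count filter, which held 58.3% of the variance, the no-phosphate libraries lay at 65.6 to 70.7, the no-nitrate libraries at -23.3 to -3.56, and full-medium columns C2 and C3 at -59.2 and -65.2. Column C4 lay at -36.4, between its partners and the no-nitrate libraries. On the second component C4 lay at 24.5, close to C2 (21.3) and C3 (24.4) and away from the no-nitrate libraries (-37.4 to -32.8). Its total of 19031088 counts and its 26700 genes with a count were within the range of the other libraries. The main counts and medians that rest on C4 are given below with and without it.

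The 45 genes were strongly lower without phosphate as a matter of choice, and the sizes varied widely among them. The log2 ratio of no phosphate over full medium ran from -4.74 to -1.504 with a median of -1.76, and 15 genes were at -2 or lower. Set against the no-nitrate libraries, the no-phosphate ratio ran from -4.55 to -1.02 with a median of -1.62. Mean levels ran from 0.0854 to 72.6 CPM without phosphate, from 2.07 to 167 CPM without nitrate and from 2.96 to 216 CPM in full medium. Levels were not divided by gene length, so they do not rank the genes against each other. In bulk shoots, fewer cells of a type and less RNA per cell cannot be told apart.

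LOC111881860 had the lowest ratio of the 45. It was measured at 1.59, 2.02 and 4.33 CPM in columns P1, P2 and P3, at 31.4, 75.9 and 146 CPM in N1, N2 and N3, and at 117, 157 and 14.8 CPM in C2, C3 and C4. The 3 no-phosphate libraries were low together, while the other 6 libraries were scattered, with C4 the lowest of them and N1 the next. The mean was 2.64 ± 1.48 CPM without phosphate, 84.4 ± 57.6 CPM without nitrate and 96.4 ± 73.4 CPM in full medium (SD, n = 3 each). The log2 ratio was -4.74 for no phosphate over full medium and -0.19 for no nitrate over full medium. The no-nitrate ratio depended on several single libraries: it was -0.70 without C4 and -0.83 without N3, both outside the limit of the rule, and 0.20 without N1 and 0.35 without C3. The no-phosphate ratio ran from -5.25 without C4 to -4.20 without C3.

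LOC111917852 followed, and it was nearly absent from the no-phosphate libraries. It had 0, 4 and 1 counts there, or 0, 0.212 and 0.0442 CPM, against 2.37, 8.75 and 16.2 CPM without nitrate and 9.81, 13.7 and 0.946 CPM in full medium. C4 was again the lowest full-medium library and N1 the lowest no-nitrate library. The 5 counts over the no-phosphate group correspond to 0.0794 CPM, with an exact 95% Poisson interval of 0.0258 to 0.185 CPM that covers counting error only. The log2 ratio of -3.08 depends on the added 1 CPM, and with 5 CPM it was -1.37.

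The member ranked 4 by its ratio had the most even levels across the no-nitrate and full-medium libraries. It stood at 2.24, 3.08 and 3.40 CPM without phosphate, at 27.6, 26.4 and 25.6 CPM without nitrate and at 23.9, 22.3 and 23.5 CPM in full medium. Every no-nitrate library was above every full-medium library, and the no-phosphate libraries were far below both. The log2 ratio was -2.63 for no phosphate over full medium and 0.18 for no nitrate over full medium, and it was the only one of the 45 whose full-medium libraries all lay below its no-nitrate libraries.

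**Figure D1:**
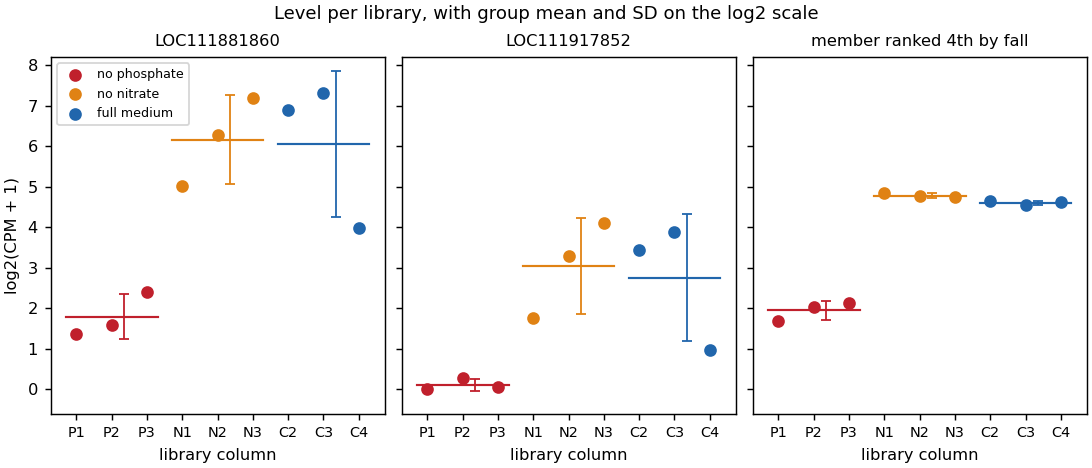
Level of 3 members in each library as log2(CPM + 1), with the group mean as a line and the SD (n = 3) as a bar, for no phosphate, no nitrate and full medium from left to right. In LOC111881860 and LOC111917852 column C4 lies below every no-nitrate library, and in the member ranked 4 the full-medium and no-nitrate libraries lie close together.

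Members further down had smaller ratios. The member ranked 6 had 15.8, 15.1 and 20.4 CPM without phosphate, 54.8, 82.6 and 115 CPM without nitrate, and 85.7, 106 and 88.8 CPM in full medium. Here the full-medium libraries were close together and the no-nitrate libraries spread on both sides of them. The member ranked 44 had 79.9, 76.1 and 61.9 CPM without phosphate, 142, 162 and 166 CPM without nitrate, and 193, 231 and 201 CPM in full medium. The 3 groups of this gene did not overlap, with the no-nitrate libraries in between.

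Column C4 lay above the mean of C2 and C3 in 7 genes, furthest in the member ranked 8. This gene had 7.65, 9.02 and 5.87 CPM without phosphate, 55.8, 51.6 and 44.5 CPM without nitrate, and 26.7, 13.5 and 76.0 CPM in full medium. Its log2 ratio of no nitrate over full medium was 0.38 with all libraries and 1.29 without C4.

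The separation that the rule asks for was narrow in many members. The lowest of the 6 other libraries was above the highest no-phosphate library by a log2 difference of 0.01 to 2.41 with a median of 0.69 (1 CPM added). The narrowest gap was in the member ranked 16, with 2.33 CPM in P2 and 2.36 CPM in C4. In the member ranked 29 P3 had 29.0 CPM and C4 had 29.3 CPM. In both, C4 alone came that close to the no-phosphate libraries. C4 was the lowest of the 6 in 22 genes and N1 in 13. Without C4 the gap ran from 0.17 to 2.60 with a median of 0.90.

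Over all 45 genes the no-phosphate libraries varied least when C4 was included. The SD of log2(CPM + 1) within a group had a median over the 45 genes of 0.18 without phosphate, 0.43 without nitrate and 0.63 in full medium. Over all 23366 tested genes the same medians were 0.11, 0.12 and 0.15. Without C4 the full-medium median was 0.14 in the 45 genes and 0.09 in all tested genes. With C4 included, the full-medium SD exceeded the no-phosphate SD in 37 of the 45 genes, and the no-nitrate SD exceeded it in 32. These counts were not made without C4 or over all tested genes, whose median SDs were in the same order. The rule keeps the no-phosphate libraries below all others, which limits their spread. The added 1 CPM also narrows the SD at low levels, and the median of the gene means was 6.17 CPM without phosphate against 30.4 CPM in full medium.

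The spread had a shared shape across the members. Column C4 was the lowest full-medium library in 34 of 45 genes, against 40.5% of all tested genes. Column N1 was the lowest no-nitrate library in 35 of 45, against 30.5% of all tested genes. Both held in 30 genes, or 66.7%, against 14.6% of all tested genes. The rule used these same libraries, and a low C4 raises the no-nitrate ratio that the rule limits. The shares over all tested genes therefore describe the members and are not a test of them. The summed level of the 45 genes was 493, 553 and 556 CPM in P1, P2 and P3, 1393, 1944 and 2430 CPM in N1, N2 and N3, and 2407, 2672 and 1419 CPM in C2, C3 and C4. By this sum C4 and N1 were close to each other and lay between the no-phosphate libraries and the rest. The sum weights the genes with most reads.

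**Figure D2:**
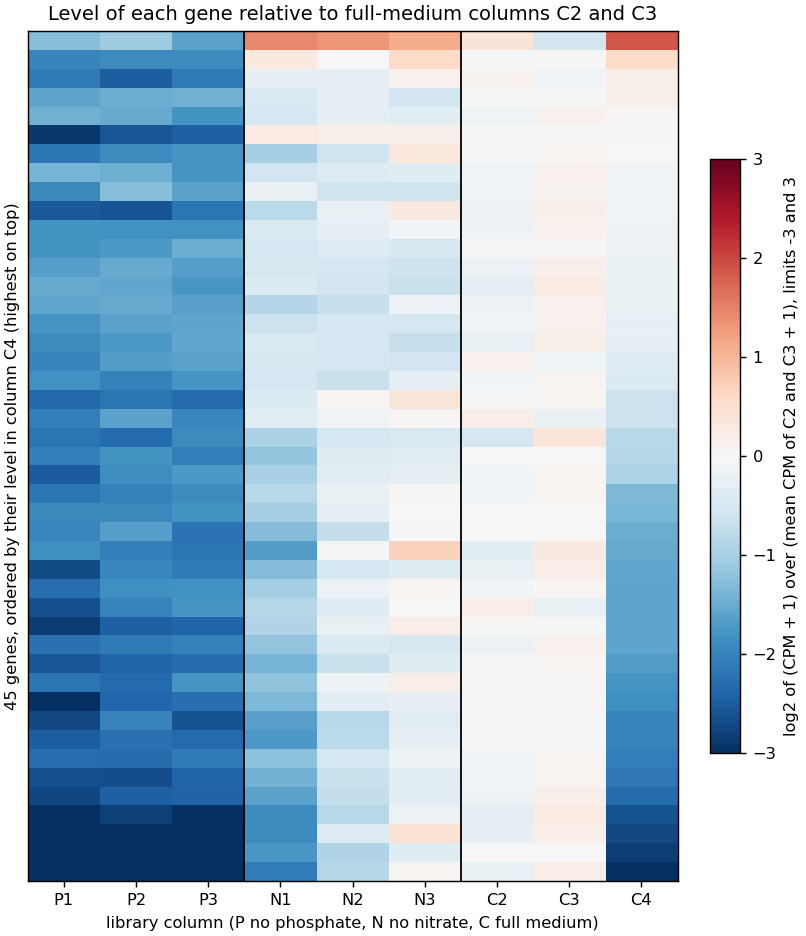
Level of each of the 45 genes (rows) in the 9 libraries (columns) as log2 of CPM + 1 over the mean of columns C2 and C3 + 1, with colours limited to -3 and 3 and rows ordered by column C4. The no-phosphate columns are low throughout, and in the lower rows C4 and N1 are low together.

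By their level in C4 the members fell into spans, which were set after the values were seen. In 21 genes C4 was at a log2 of -1 or lower against the mean of C2 and C3, in 17 genes it was within 0.5 of that mean, and 7 genes lay elsewhere. Of all tested genes 1.29% were at -1 or lower. In all 21 genes N1 was the lowest no-nitrate library, and in 20 of the 21 C4 was below every no-nitrate library. Their median level against the mean of C2 and C3 was -2.63, -2.31 and -2.26 in P1, P2 and P3, -1.34, -0.52 and -0.16 in N1, N2 and N3, and -1.76 in C4 (log2). Among the 17 even genes N1 was lowest in 9, and the medians were -1.79, -1.69 and -1.74 without phosphate, -0.48, -0.49 and -0.36 without nitrate and -0.15 in C4. The median SD of log2(CPM + 1) without phosphate, without nitrate and in full medium was 0.22, 0.61 and 1.02 in the 21 genes. In the 17 it was 0.16, 0.13 and 0.16, so the order of spread seen over all 45 genes did not hold there. The spans are set by C4, so a larger full-medium SD in the 21 genes follows from their definition.

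Low C4 together with low N1 also occurred outside the 45 genes. Of 281 other tested genes with C4 at -1 or lower, N1 was the lowest no-nitrate library in 227, or 80.8%. Their median log2 ratio was -0.81 for no phosphate over full medium and -0.07 for no nitrate over full medium, and 46 of them were at -1.5 or lower without phosphate. What distinguishes C4 and N1 from their partners is not given in the labels, and its part in these values was not tested.

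The nitrate side of the rule was met mostly from below. The log2 ratio of no nitrate over full medium was under 0 in 34 of the 45 genes and above 0 in 11, with a median of -0.31 and a range of -0.48 to 0.38. It lay within 0.25 of 0 in 18 genes and under -0.25 in 25. Among the 21 genes with low C4 its median was -0.19, and among the 17 even genes it was -0.41. Without column C4 these medians were -0.59 and -0.44. Over all 45 genes the median was -0.49 without C4 and -0.41 without N3, and it was nearer 0 without C2 (-0.17), N1 (-0.08) or C3 (-0.03).

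The nitrate limit depended on C4 for many members. Without that column 44 of the 45 genes still had a no-phosphate ratio of -1.5 or lower, but only 23 kept a no-nitrate ratio within 0.5. In 21 genes it went below -0.5, in none below -1, and the lowest value was -0.90. Of the 21 genes with low C4, 8 stayed within the limit, and of the 17 even genes 11 did. The rule applied without C4 chose 68 genes, 23 of them among the 45. Group medians in place of means, an alternative chosen after seeing the data, gave 52 genes with 28 of the 45. Leaving out C4 alone keeps N1, which was low in the same 21 genes, in the no-nitrate mean. Leaving out C4 and N1 together, also chosen after seeing the data, gave 93 genes with 34 of the 45. The median no-nitrate ratio of the 45 genes was then -0.33.

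**Figure D3:**
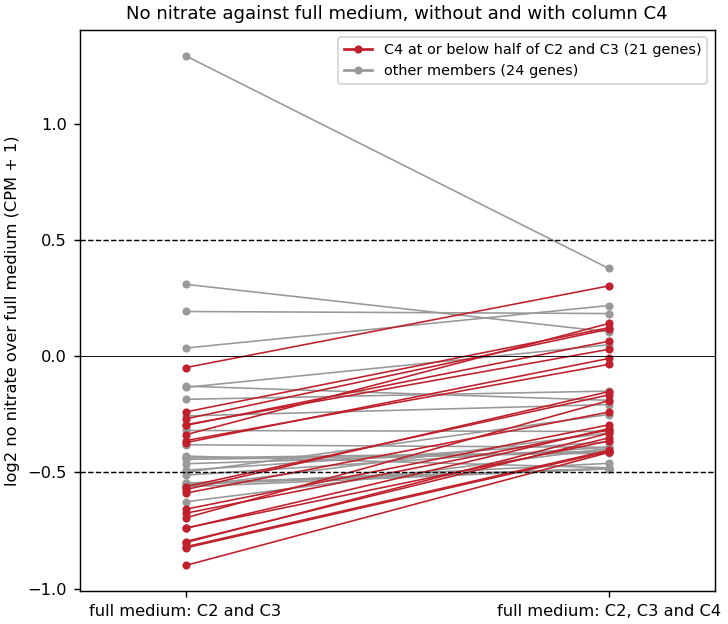
Log2 ratio of no nitrate over full medium for each of the 45 genes, with full medium taken as columns C2 and C3 (left) or C2, C3 and C4 (right) and 1 line per gene. Dashed lines mark -0.5 and 0.5. The 21 genes with low C4 all lie higher on the right, which follows from how they were picked. On the left 21 of the 45 genes lie below -0.5.

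The lower nitrate limit cut through a dense run of genes. In all, 218 genes had a no-phosphate ratio of -1.5 or lower and no-phosphate libraries below all others, and the 45 made up 20.6% of these. Over the 218 the median log2 ratio of no nitrate over full medium was -0.64, with 25% to 75% of genes at -0.72 to -0.54. Between -0.7 and -0.5 lay 102 genes, and between -0.5 and -0.3 there were 23. The members nearest the lower limit stood at -0.485, -0.484 and -0.484, and the genes just beyond it at -0.505, -0.505 and -0.508. Above the upper limit lay 2 of the 218 genes, at 0.545 and 1.23, and the nearest members below it stood at 0.378, 0.303 and 0.219. At the no-phosphate limit the nearest members stood at -1.504, -1.509 and -1.536, and the nearest genes outside at -1.494, -1.493 and -1.492.

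**Figure D4:**
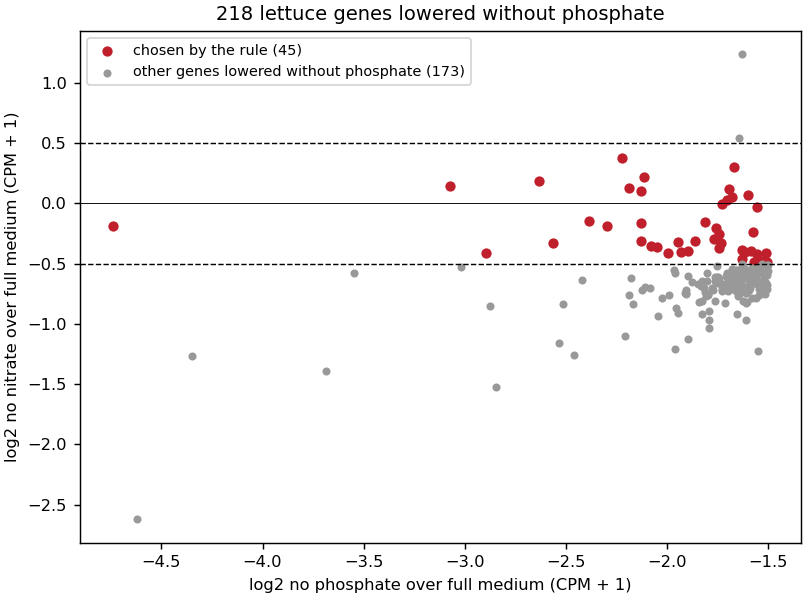
Log2 ratio of no nitrate over full medium against that of no phosphate over full medium for the 218 genes lowered without phosphate, with the 45 chosen genes in red and the other 173 in grey. Both axes share the full-medium libraries, dashed lines mark -0.5 and 0.5, and most grey points lie just below the lower dashed line.

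The genes below that limit were steadier. In the 171 genes with a no-nitrate ratio under -0.5, the median SD of log2(CPM + 1) was 0.12 without phosphate, 0.09 without nitrate and 0.17 in full medium, against 0.18, 0.43 and 0.63 in the 45. Column C4 was the lowest full-medium library in 36.3% of the 171 genes, and C4 and N1 were both lowest in 19.3%. The 171 genes had a library order of their own. C2 was their lowest full-medium library in 61.4%, against 15.6% of the 45 and 29.7% of all tested genes. These differences between gene sets were not tested, because the same libraries chose both sets.

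All 45 genes passed the low-count filter. In edgeR's quasi-likelihood test over all tested genes (Benjamini-Hochberg adjusted p under 0.05), 44 were called lower without phosphate than in full medium, where 23.7% of all tested genes were called lower. None was called higher, against 22.8% of all tested genes. Against the no-nitrate libraries 34 were called lower without phosphate and 0 higher, where 13.8% of all tested genes were called lower and 13.3% higher. DESeq2 called all 45 lower in both comparisons, and neither tool had a member higher, also at an unadjusted p under 0.05. The rule used both comparisons, so these counts support nothing further. The exception in the first edgeR comparison was the member ranked 31, with 4.29, 3.61 and 3.18 CPM without phosphate and 14.1, 22.0 and 5.67 CPM in full medium. The 11 genes that edgeR did not call in the second were all among the 21 with low C4. Without C4 edgeR called 44 of the 45 lower in each comparison and 0 higher. The shares of all tested genes were then 24.8% lower and 25.5% higher against full medium, and 18.9% and 15.8% against no nitrate.

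Some of the 45 were also lower without nitrate. In the same test 9 genes were called lower and 0 higher in no nitrate against full medium, where 8.36% of all tested genes were called lower and 6.9% higher. At an unadjusted p under 0.05, 12 were lower and 0 higher, and DESeq2 called 10 lower and 0 higher. The 9 genes were all among the 17 with even C4. Without C4 edgeR called 10 lower and 1 higher, against 9.21% and 11.5% of all tested genes. In 10 genes every full-medium library lay above every no-nitrate library, and in 1 gene below it. That made 11 of 45 without overlap, against 31.8% of all tested genes in either direction. Without C4, full medium lay above every no-nitrate library in 25 genes and below it in 2, against 49.4% of all tested genes in either direction. The member ranked 36 was among the 10 found with all libraries, with 48.7, 57.8 and 55.2 CPM without nitrate and 64.1, 76.9 and 72.1 CPM in full medium. For all 45 genes "lowered only without phosphate" describes the size of the ratio and not an absence of difference without nitrate. The genes that were not called were not shown to be unchanged. Without C4 the no-nitrate ratio was below -0.5 in 21 of the 45.

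**Figure D5:**
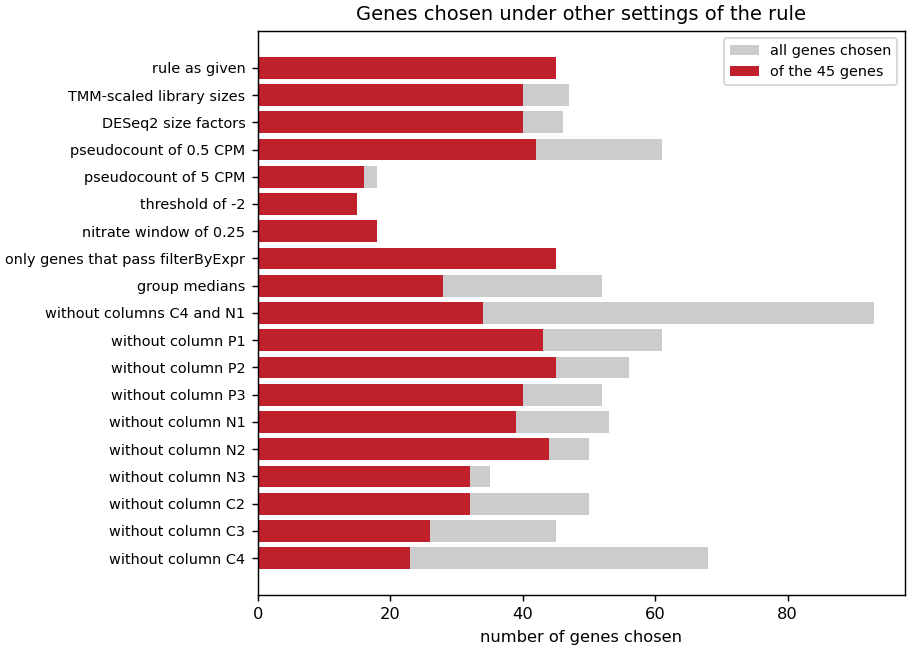
Number of genes chosen when a setting of the rule was changed or libraries were left out (grey bars), and how many of these were among the 45 (red, from 0). The rule as given is on top, and 1 bar leaves out C4 and N1 together. The looser limits of -1 for no phosphate (447 genes) and 1 for no nitrate (206 genes) are not drawn. The loss of members was greatest with an added 5 CPM and with the stricter limits, and among single libraries it was greatest without C4, which kept 23.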

How the data were processed

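Shoot RNA of 9 lettuce libraries was analysed. The deposited values were raw counts per gene, per the file headers, without normalization by the authors. The submitters' processing notes name STAR 2.7 and DESeq2 without a role. For the read counter, strand setting and genome build the sources used here give nothing. Reads of close gene copies or overlapping genes may therefore be divided in untraceable ways.

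No-phosphate and no-nitrate columns were matched to samples by title. The full-medium columns carry other numbers and were used as replicates without a number. All replicate pairs differed by more than sampling noise (chi-square per degree of freedom 5.06 to 27.9). Of the 48985 genes, 18837 had no count.

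The members and alternatives were chosen with earlier results of these data known. Members were found on CPM by the rule given above. One edgeR 4.0.16 model (R 4.3.3) was fitted to all 9 libraries, with filterByExpr (23366 genes), TMM factors of 0.966 to 1.03 and robust quasi-likelihood F-tests, two-sided. It was tested on simulated data, and DESeq2 1.42.0 served as an alternative. Identifiers were to be printed for the 2 members with the lowest ratio and a mean of at least 1 CPM. Members given by rank were chosen after their values were seen. Planned gene lists were not used, because identifiers have no names here.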

Additional observations from a re-analysis of the deposited data

How the results depend on the processing

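The number of genes chosen was 45, and it was 47 with TMM-scaled totals, 46 with DESeq2 size factors (40 of the 45 in each) and 61 with 0.5 CPM added. It was 18 with 5 CPM added, 447 and 15 with a no-phosphate limit of -1 and -2, 18 and 206 with a nitrate limit of 0.25 and 1, and 93 without C4 and N1 together. Leaving out 1 library gave 35 (without N3) to 68 (without C4) genes. Leaving out C3 gave 45 genes, of which 26 were shared. Under the scalings, added CPM, group medians and omitted libraries tried, the members' median ratios kept their sign. For the no-phosphate ratios the rule had set the sign in advance. The medians moved by less than the larger of the 2 groups' replicate SDs (median over members 0.63, 0.67 and 0.44 for no phosphate over full, no nitrate over full and no phosphate over no nitrate). These SDs are those of single genes. The full-medium SD had a median of 0.63 with C4 and 0.14 without it, so staying within them is a weak check. With 5 CPM added the median ratios were -1.37, -0.21 and -1.22. The SD of 0.67 exceeds the nitrate limit of 0.5, so a shift within it does not mean that members stayed within the limit. The median no-nitrate ratio ran from -0.49 without C4 to -0.03 without C3. The LOC111917852 ratio to no nitrate was -3.22, and -1.47 with 5 CPM added. Calls in no nitrate against full medium, 1954 lower and 1612 higher, depended on single libraries: 842 (without C3) to 2182 (without C4) lower and 1027 (without N2) to 2723 (without C4) higher. Without N1 848 and without N2 1149 were lower, without C3 1056 were higher, and with only these groups fitted 1209 were lower. In no phosphate against no nitrate 3223 were lower and 3097 higher. Leaving out a no-phosphate or no-nitrate library gave 2162 to 2929 lower and 1972 (without N2) to 2761 (without N1) higher, with 2056 higher without N3. Leaving out C4, which is in neither group but in the shared fit, raised these counts to 4490 lower and 3750 higher. The causes were not tested. Same-numbered no-phosphate and no-nitrate libraries deviated together with r of 0.026, 0.05 and 0.059 across genes. Differently numbered ones had r of -0.082 to 0.041. With 3 libraries per group these small values neither show nor exclude pairing by number. A replicate block gave 3900 lower and 3888 higher, against 4077 and 3940 in the same groups without it. No paired analysis was possible with full medium because its columns carry other numbers. With groups of 3 libraries no single value could be screened as an outlier.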

Other observations

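The rule mirrored upwards chose more genes. Ratios of 1.5 or higher without phosphate, with every no-phosphate library above all others, were met by 421 genes, and 211 of these (50.1%) had a no-nitrate ratio within 0.5. Their median SD of log2(CPM + 1) was 0.12 without phosphate, 0.14 without nitrate and 0.19 in full medium. C4 was the highest full-medium library in 115 of them, or 54.5%, and the lowest in 42. How often C4 was the highest over all tested genes was not counted, so the 54.5% has no background here. Without C4 the mirrored rule chose 192 genes, 169 of them among the 211.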
